A study of Mus musculus with 9 samples.

Results

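The type I interferon response was followed through 39 mouse genes, listed by symbol. They were chosen with earlier results of these data known. All 39 have a row in the deposited tables, among 23279 gene rows. They encode the transcription factors of the response, the sensors that start it, and the antiviral proteins it induces. Expression was measured by RNA sequencing of polyadenylated RNA in pro-B cell cultures, with 3 libraries in each of 3 groups. Ts1Rhr mice carry an extra copy of a segment of chromosome 16 that runs from Cbr1 to Fam3b and includes Hmgn1, and their labelled background is FVB x C57BL/6 F1. HMGN1_OE mice overexpress Hmgn1, which encodes a nucleosome-binding protein, on C57BL/6. Which promoter drives their transgene, and from which species it came, the sources used here do not state. WT libraries came from wild-type littermates, whose background is not stated either, so the effects of strain and of genotype cannot be told apart. The cell type label of all 9 libraries is the same and contains the word Ts1Rhr, so genotypes were taken from the genotype label. Marrow cells from animals 6 to 8 weeks old grew for 7 days with interleukin-7, a growth factor for early B cells, and each culture's colonies were combined. Replicates are labelled as biological, and their animals are not given, so p-values measure only the spread between these libraries.

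Type I interferons, the interferon alpha and beta proteins, bind a receptor made of IFNAR1 and IFNAR2. The receptor's kinases JAK1 and TYK2 phosphorylate STAT2, which joins IRF9 in a complex that binds the interferon-stimulated response element in promoters. Most of the antiviral genes below are induced this way, and many are also transcribed at a low level in cells that have not met interferon.

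That element can be read in the promoters of the genes described below, and it is shown for the 6 with the highest level among those that carry it. Promoter windows, from 250 bases before to 50 bases after the start of transcription, were in the RefSeq table of build GRCm38.p6 for 29 of the 39 genes. The core searched was GAAA, any 2 bases and GAAA again, on both strands and with overlapping matches allowed. It was present in 15 of the 29 (51.7%), against 1079 of all 27025 genes with a window (3.99%). Each line gives the 5′ to 3′ sequence on the strand of the gene, with the matched bases in capitals. TTTC in place of GAAA means that the match lies on the opposite strand.
Irgm1, chr11:48871395-48871490, minus strand: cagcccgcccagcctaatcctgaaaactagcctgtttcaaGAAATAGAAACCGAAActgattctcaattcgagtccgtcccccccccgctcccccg
Eif2ak2, chr17:78882543-78882594, minus strand: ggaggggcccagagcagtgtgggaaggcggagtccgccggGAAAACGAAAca
Gbp3, chr3:142559959-142560054, plus strand: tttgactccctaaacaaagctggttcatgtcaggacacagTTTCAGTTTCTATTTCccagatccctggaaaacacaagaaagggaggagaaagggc
Gbp2, chr3:142620564-142620653, plus strand: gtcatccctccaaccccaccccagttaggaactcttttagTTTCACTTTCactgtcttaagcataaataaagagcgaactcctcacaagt
Ddx58, chr4:40239796-40239863, minus strand: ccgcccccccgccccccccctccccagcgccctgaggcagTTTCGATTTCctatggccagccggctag
Bst2, chr8:71537547-71537642, minus strand: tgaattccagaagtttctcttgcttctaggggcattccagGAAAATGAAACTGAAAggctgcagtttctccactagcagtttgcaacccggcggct
Irgm1, Gbp3 and Bst2 each hold 2 overlapping matches, so that 3 GAAA blocks follow each other. The match of Bst2 begins at position -130 from the start site, that of Gbp3 at -45, and that of Eif2ak2 at 18, within the transcript. The other genes with a match were Ifih1, Ifit1, Ifit3, Igtp, Isg15, Oas1a, Oas3, Rsad2 and Stat2. A second pattern, TTCNNNGAA, after the gamma-activated site of interferon gamma target genes, was in 8 of the 29 (27.6%) and in 9.55% of all genes. These are matches of letters in a window, not measured binding sites.

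The libraries differ in ways that touch the genes below. The target gene Hmgn1 stood at 127, 125 and 126 raw FPKM in Ts1Rhr and 77.2, 71.9 and 73.4 in HMGN1_OE, against 60.1, 67.3 and 58.5 in WT. FPKM are fragment numbers scaled to transcript length and to the mapped fragments of the library. The authors deposited them raw and as normalised FPKM, after spike-in RNA had been added for scaling per cell. Values of libraries stand in the order of replicates 1, 2 and 3. Ts1Rhr replicate 3 was male by its Y-linked transcripts and the other 8 libraries were female. Pro-B markers were all present, with 16 of 16 above the filter. Macrophage markers were present as well, with 17 of 19 above it and the lysozyme gene Lyz2 at 18768 raw FPKM, while Cd163 and Marco stayed below 1 in every library. The sum of this list averaged 23853 raw FPKM over the 9 libraries, so most of it was Lyz2 alone. The summed raw FPKM of the macrophage list was 19035, 18243 and 16734 in Ts1Rhr and 21877, 31388 and 15199 in HMGN1_OE, against 39248, 26317 and 26633 in WT. That of the pro-B list was 3791, 3379 and 4197 in Ts1Rhr and 4128, 3423 and 4724 in HMGN1_OE, against 2579, 3326 and 2761 in WT. On this scale Ts1Rhr lay below WT for the first list and above it for the second, without overlap. In normalised FPKM the pro-B sums overlapped, at 3389, 3199.7 and 3875 in Ts1Rhr and 3622, 3795 and 2162 in WT. Sequencing depth is unknown, and 13023 to 14358 genes per library had a raw value above 0.

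Of the 39 interferon response genes, 32 had a mean raw FPKM of at least 1 and were tested. The 7 others were Ifit1, Ifit3, Oasl1, Mx1, Mx2, Irf7 and Ifi44. They make up 17.9%, where 53.3% of all gene rows were below that value. FPKM are per length of transcript, so levels can be set side by side between genes. The highest mean raw FPKM belonged to Trim25, a ubiquitin ligase that activates the RNA sensor RIG-I, with 52.6. Samhd1, which breaks down deoxynucleotides and so starves viruses, followed with 42.9 and the GTPase gene Irgm1 with 31.1. Trim25 ranked at percentile 85.5 of the 10878 tested genes, Irf1 at 52.8 and Isg15 at 7.86. The levels thus ran through most of the range of expressed genes. Among the low ones were Isg15, a ubiquitin-like modifier, at 1.95, Rsad2, the antiviral enzyme viperin, at 1.70, and Oasl2 at 1.05 raw FPKM.

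**Figure D1:**
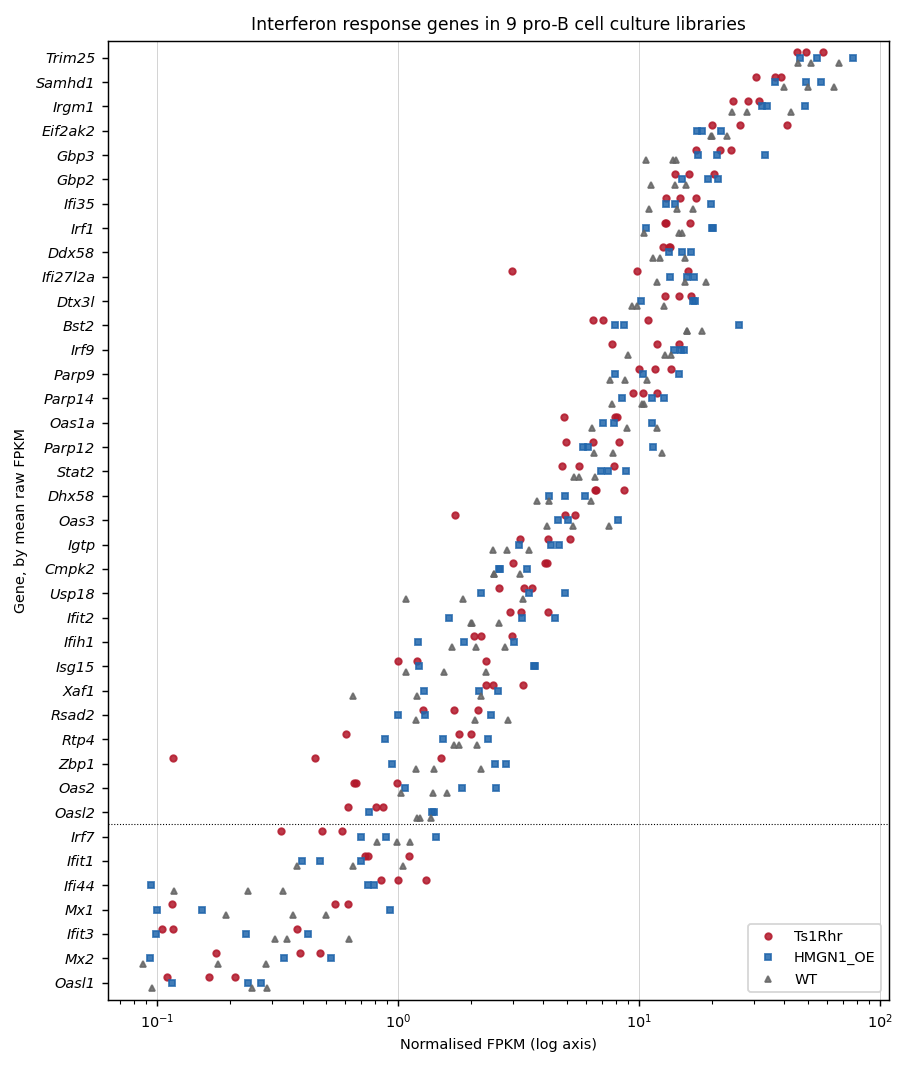
Normalised FPKM (x, log axis) of the 39 genes (y, ordered by mean raw FPKM) in each of 9 libraries, with 3 points for Ts1Rhr (circles), HMGN1_OE (squares) and WT (triangles). The 7 genes below the dotted line had a mean raw FPKM under 1 and were not tested by limma, and for most genes the points of the 3 groups are intermingled.

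The interferons themselves were at or near 0. Of 20 ligand genes 17 have a row, and 15 of these were listed at 0 in every library, among them Ifnb1 and Ifna1. Ifng, the type II interferon, averaged 0.474 raw FPKM and Ifnz 0.00886. The receptor and the first signalling steps were expressed, with a mean raw FPKM of 19.3 for Ifnar1, 54.5 for Ifnar2, 58.5 for the kinase gene Jak1 and 14.6 for Tyk2. The 3 highest of that list were Ptpn6, a phosphatase that damps signalling, at 94.7, Ifngr1, the receptor for interferon gamma, at 72.6, and Jak1. Of its 17 genes 0 passed in either comparison with WT on normalised FPKM (limma, adjusted p). At an unadjusted p under 0.05 there were 2 (11.8%) in Ts1Rhr and 1 (5.88%) in HMGN1_OE, beside 19.5% and 11.7% of all tested genes. On raw FPKM 1 gene of the list (5.88%) fell in Ts1Rhr, beside 4.56% of all tested genes. This was Socs3, a feedback inhibitor of cytokine receptors. It averaged 2.52 ± 0.579 raw FPKM in Ts1Rhr and 5.27 ± 0.733 in WT (SD, n = 3 each), a log2 fold change of -1.05 (limma, adjusted p = 0.0350). The normalised value was -0.79 with a standard error of 0.33 and did not pass (limma, adjusted p = 0.211).

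None of the 32 tested interferon response genes passed in Ts1Rhr against WT on normalised FPKM (limma, Benjamini-Hochberg adjusted p under 0.05). Of all tested genes 0.57% passed, 0.423% higher and 0.147% lower. At an unadjusted p under 0.05 there were 6, namely Bst2, Dhx58, Gbp3, Ifi27l2a, Xaf1 and Zbp1, or 18.8% of the 32, beside 19.5% of all tested genes. Of the 32, 17 (53.1%) had a log2 fold change above 0, as 59.9% of all tested genes did. Their median was 0.02, while the median over all tested genes was 0.12. On raw FPKM 1 gene passed, Bst2, which was lower, where 8.85% of all tested genes passed, 4.29% higher and 4.56% lower. At an unadjusted p under 0.05 there were 9 on raw FPKM (28.1%), beside 30.9%. For 5 genes every normalised Ts1Rhr value exceeded every WT value (Dhx58, Dtx3l, Gbp3, Ifit2 and Xaf1), a pattern seen in 21.7% of all tested genes. The reverse held for 4 genes (Bst2, Oas2, Oasl2 and Samhd1), beside 8.43% of all tested genes. On raw FPKM 3 were higher without overlap (Dtx3l, Gbp3 and Ifit2), beside 19.1%, and 7 lower (Bst2, Ifi27l2a, Oas2, Oasl2, Parp12, Samhd1 and Zbp1), beside 18.5%. These shares lie near the background. In a bulk sample, fewer cells of a type and less RNA per cell cannot be told apart.

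**Figure D2:**
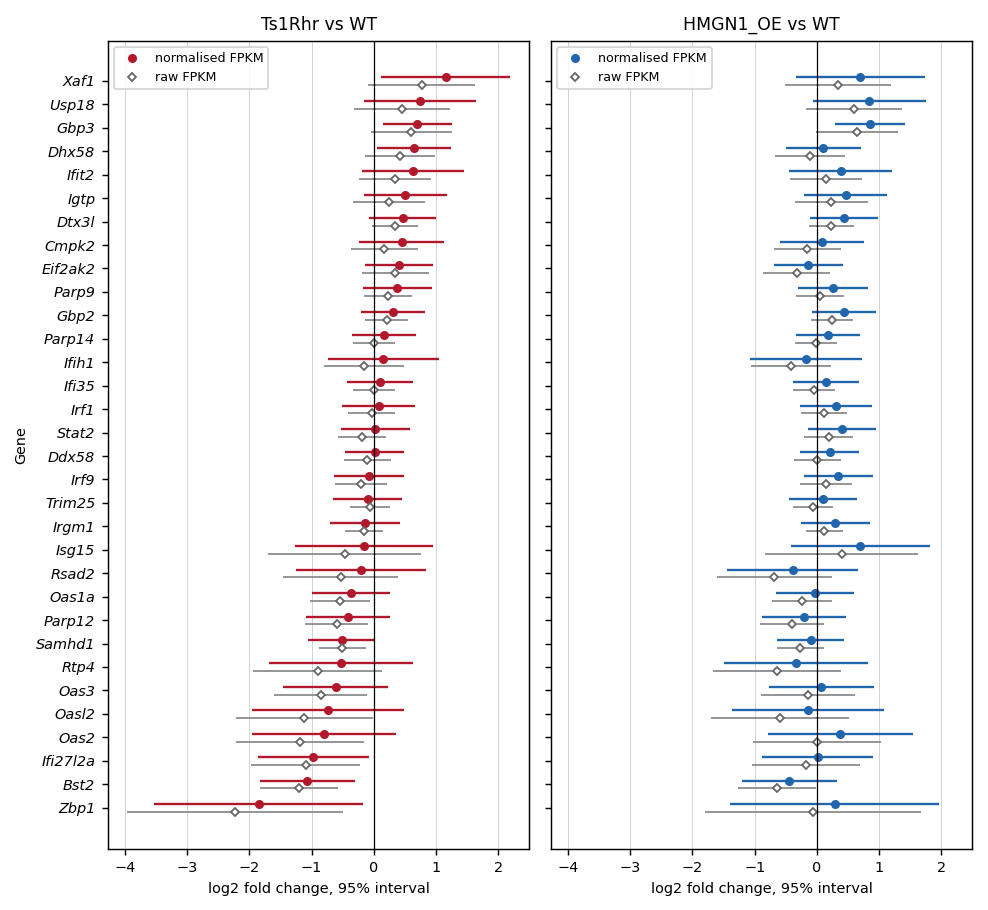
Log2 fold change (x) with its 95% interval for each of the 32 tested genes (y), in Ts1Rhr against WT on the left and HMGN1_OE against WT on the right, from normalised FPKM (filled circles) and raw FPKM (open diamonds). Bst2 on raw FPKM in Ts1Rhr, at -1.20, was the only value with an adjusted p under 0.05, and both panels use the same WT libraries.

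Of the transcription factors, Stat2, Irf9 and Irf1 were tested and none passed, while Irf7 lay below the filter and is described with the low genes. Stat2 stood at 7.83, 5.60 and 4.75 normalised FPKM in Ts1Rhr and 7.41, 8.82 and 6.96 in HMGN1_OE, against 5.61, 6.53 and 5.38 in WT. Its partner Irf9 stood at 14.6, 11.8 and 7.69 in Ts1Rhr and 14.9, 15.3 and 13.9 in HMGN1_OE, against 13.6, 12.7 and 9.0 in WT. The HMGN1_OE values of both genes lay above those of WT without overlap, while those of Ts1Rhr spanned the WT range. In HMGN1_OE the log2 fold change of Stat2 was 0.40 with a 95% interval from -0.15 to 0.96 (limma, adjusted p = 0.551), and that of Irf9 was 0.34, from -0.22 to 0.90 (limma, adjusted p = 0.610). In Ts1Rhr they were 0.03 (-0.53 to 0.58) and -0.08 (-0.64 to 0.48). On raw FPKM the HMGN1_OE values overlapped WT for both genes. Irf1, an activator that interferon gamma induces too, averaged 14.0 ± 1.96 in Ts1Rhr and 17.0 ± 5.45 in HMGN1_OE, against 13.3 ± 2.55 in WT (SD, n = 3 each). Its intervals reached from -0.50 to 0.66 in Ts1Rhr and from -0.27 to 0.89 in HMGN1_OE.

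Among the sensors, Dhx58 was higher and Zbp1 lower in Ts1Rhr, and neither passed. Dhx58, which encodes LGP2, a helper of the RNA sensors RIG-I and MDA5, stood at 6.54, 6.64 and 8.66 normalised FPKM in Ts1Rhr and 4.91, 5.98 and 4.20 in HMGN1_OE, against 6.28, 4.21 and 3.75 in WT. All 3 Ts1Rhr libraries lay above every other library, by a narrow margin over WT replicate 1. Against WT the log2 fold change was 0.64 with a standard error of 0.28 (limma, adjusted p = 0.224), and relative to HMGN1_OE it was 0.54 (limma, adjusted p = 0.988). On raw FPKM the values of Ts1Rhr and WT overlapped. Zbp1, a sensor of left-handed nucleic acids that can trigger cell death, stood at 0.449, 1.51 and 0.116 in Ts1Rhr and 0.945, 2.52 and 2.80 in HMGN1_OE, against 1.19, 1.41 and 2.21 in WT. The low values were those of Ts1Rhr replicates 1 and 3, and replicate 3 was listed at 0 in the raw table. Relative to WT its log2 fold change was -1.85 with a standard error of 0.80 (limma, adjusted p = 0.215), and without Ts1Rhr replicate 3 it was -0.91. Against HMGN1_OE it was -2.13 (limma, adjusted p = 0.988).

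None of the cytoplasmic RNA sensors themselves passed against WT, which does not show that their levels were equal. Ddx58, which encodes RIG-I, averaged 13.1 ± 0.511 normalised FPKM in Ts1Rhr and 14.9 ± 1.55 in HMGN1_OE, against 13.0 ± 2.17 in WT (SD, n = 3 each). Its log2 fold changes were 0.02, with a 95% interval from -0.45 to 0.49, in Ts1Rhr and 0.20, from -0.27 to 0.68, in HMGN1_OE. Ifih1, which encodes MDA5, had wider intervals, from -0.74 to 1.05 in Ts1Rhr and from -1.07 to 0.72 in HMGN1_OE. Eif2ak2 encodes PKR, the kinase that halts translation when it binds double-stranded RNA. Its values were 20.0, 40.9 and 26.3 in Ts1Rhr and 17.4, 21.8 and 18.2 in HMGN1_OE, against 23.2, 19.9 and 19.9 in WT. Ts1Rhr replicate 2 alone was far above the rest, and without it the log2 fold change against WT was 0.13 in place of 0.41. Against HMGN1_OE, Eif2ak2 had the largest positive log2 fold change of the 32 genes, 0.55 with an interval from -0.01 to 1.10 (limma, adjusted p = 0.988).

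**Figure D3:**
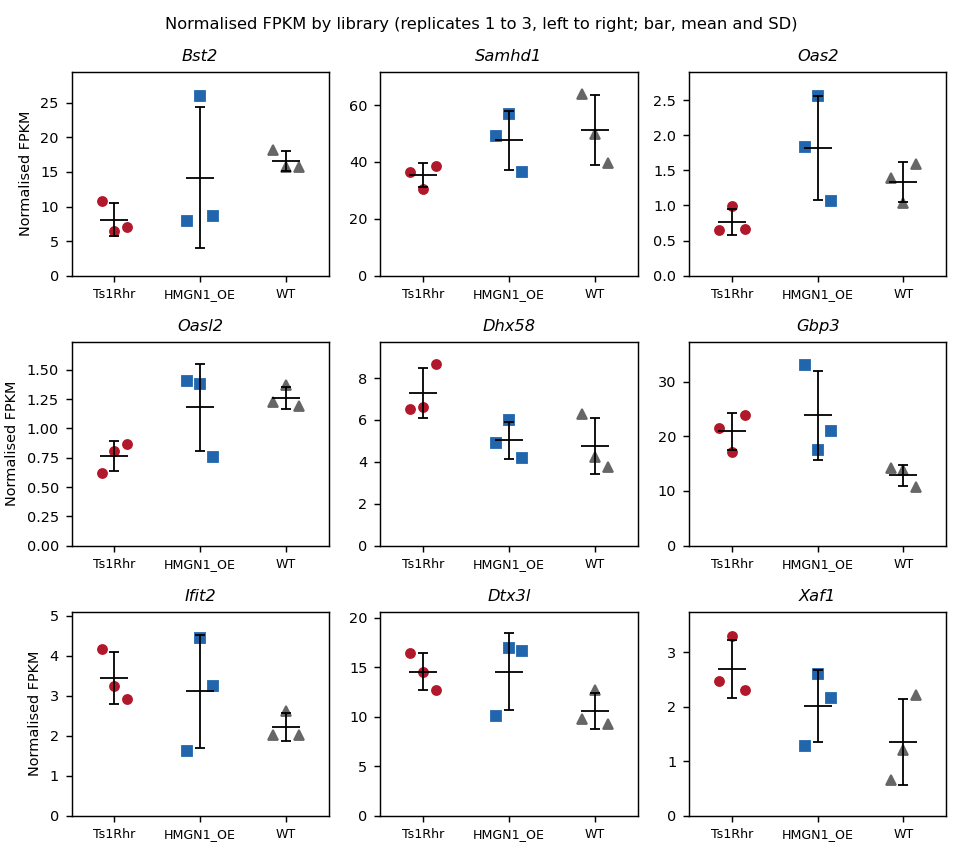
Normalised FPKM (y, from 0) of the 9 genes whose values did not overlap between Ts1Rhr and WT, by group (x), with 1 point per library and a bar for mean and SD (n = 3). Bst2, Samhd1, Oas2 and Oasl2 were lower and Dhx58, Gbp3, Ifit2, Dtx3l and Xaf1 higher in Ts1Rhr than in WT, and limma called none of them.

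Bst2 had the clearest difference of the set. It encodes tetherin, a membrane protein that holds budding viruses on the cell surface. Its normalised FPKM were 10.9, 6.44 and 7.04 in Ts1Rhr and 7.95, 25.9 and 8.63 in HMGN1_OE, against 18.2, 15.7 and 15.7 in WT. All Ts1Rhr libraries lay below all WT libraries, and HMGN1_OE held low values in 2 libraries and the highest of all 9 in replicate 2. The fold of Ts1Rhr over WT was 0.478, a log2 fold change of -1.06 with a 95% interval from -1.83 to -0.30 (limma, adjusted p = 0.141). In raw FPKM Bst2 stood at 9.04, 6.27 and 7.72 in Ts1Rhr and 9.10, 19.5 and 8.02 in HMGN1_OE, against 17.2, 16.4 and 19.2 in WT. On that scale it fell in Ts1Rhr with a log2 fold change of -1.20 (limma, adjusted p = 0.0371). That call was lost when any Ts1Rhr or WT library was left out, with an adjusted p (limma) of 0.0567, 0.125 or 0.0853 when Ts1Rhr replicate 1, 2 or 3 was absent and of 0.150, 0.0561 or 0.108 when WT replicate 1, 2 or 3 was. Fold changes stayed, on the log2 scale, between -1.32 and -1.06 in these fits. In HMGN1_OE it was -0.45 on normalised FPKM (limma, adjusted p = 0.625).

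Summed macrophage markers, mostly Lyz2, followed the order of Bst2 across the group means. The sum was lowest in Ts1Rhr as a group. HMGN1_OE replicate 2 had the highest values of its group for Bst2 and for that sum alike. Within WT the orders differed, with raw Bst2 highest in replicate 3 (19.2) and the sum highest in replicate 1 (39248). HMGN1_OE replicate 1 had a sum of 21877, above all Ts1Rhr libraries, while its raw Bst2 was 9.10, close to the 9.04 of Ts1Rhr replicate 1. All 17 tested macrophage markers had a log2 fold change below 0 in Ts1Rhr and in HMGN1_OE. On normalised FPKM 0 passed in either comparison. On raw FPKM 10 (58.8%) fell in Ts1Rhr (limma), beside 4.56% of all tested genes. The median log2 fold change of the 17 markers on normalised FPKM was -1.02 in Ts1Rhr and -0.41 in HMGN1_OE. Bst2 also marks plasmacytoid dendritic cells. The other 11 genes of the dendritic cell list summed to 73.6, 80.8 and 76.7 raw FPKM in Ts1Rhr and 69.4, 76.1 and 73.8 in HMGN1_OE, against 73.1, 72.5 and 77.2 in WT, so that without Bst2 the groups overlapped. With Bst2, 5 of 12 were above the filter, with Ccr9, Flt3, Zbtb46 and Clec9a below 1 in every library. Neutrophil markers summed to 75.0 to 173 raw FPKM in Ts1Rhr and 64.0 to 217 in HMGN1_OE, against 164 to 264 in WT. Of the 6 tested stromal markers 6 fell in Ts1Rhr and 5 in HMGN1_OE on normalised FPKM (limma). Of all tested genes 0.147% and 0.0827% fell. The part of macrophages, dendritic cells, neutrophils and stromal cells in the Bst2 difference was not tested.

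**Figure D4:**
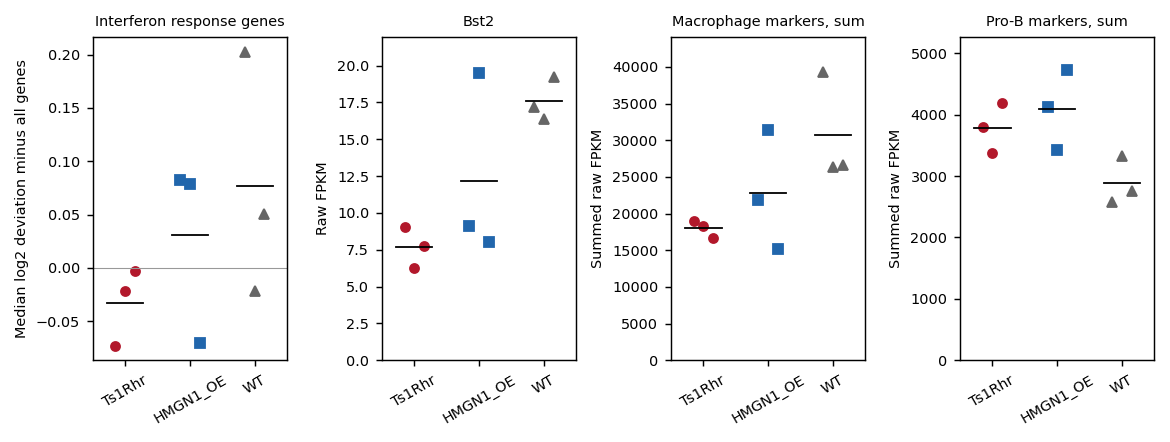
From left, the median of the 32 tested genes in each library as a log2 deviation from the 9-library mean, minus the same over all genes (raw FPKM), then raw FPKM of Bst2, summed raw FPKM of macrophage markers and summed raw FPKM of pro-B markers. Each point is a library and each bar a group mean (n = 3), and Bst2 and the macrophage sum have HMGN1_OE replicate 2 (31388) apart from the other HMGN1_OE libraries. Most of the macrophage sum is Lyz2.

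Samhd1 stood at 36.6, 30.6 and 38.7 normalised FPKM in Ts1Rhr and 49.3, 56.9 and 36.5 in HMGN1_OE, against 64.1, 49.9 and 39.7 in WT. Ts1Rhr and WT did not overlap, though WT replicate 3 was only just above Ts1Rhr replicate 3. Its log2 fold change was -0.52 with a 95% interval from -1.06 to 0.03 (limma, adjusted p = 0.276), and -0.50 on raw FPKM (limma, adjusted p = 0.0774). In HMGN1_OE it was -0.10, from -0.65 to 0.44.

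The oligoadenylate synthetases make the second messenger that activates RNase L, which cleaves viral RNA. Oas1a, Oas2, Oas3 and Oasl2 had a negative log2 fold change in Ts1Rhr against WT, and none passed. The family did not share that direction, as Oas1b and Oas1c, tested in the wider list of induced genes, stood at 0.20 and 0.84. Oas2 stood at 0.653, 0.985 and 0.667 normalised FPKM in Ts1Rhr and 1.84, 2.55 and 1.06 in HMGN1_OE, against 1.39, 1.03 and 1.59 in WT. Oasl2 stood at 0.621, 0.804 and 0.867 in Ts1Rhr and 1.41, 1.38 and 0.755 in HMGN1_OE, against 1.22, 1.37 and 1.19 in WT. For both genes every Ts1Rhr value was below every WT value. Oas2 had a log2 fold change of -0.80 with a 95% interval from -1.96 to 0.36 (limma, adjusted p = 0.425), and Oasl2 one of -0.74, from -1.96 to 0.48 (limma, adjusted p = 0.487). Oas3 stood at 5.42, 4.91 and 1.71 in Ts1Rhr and 4.58, 8.18 and 5.04 in HMGN1_OE, against 7.48, 4.12 and 5.28 in WT. Here the male library, Ts1Rhr replicate 3, was low and the other values overlapped, and the log2 fold change was -0.61 with it and -0.08 without it. The part of sex in its low values, for Oas3, Zbp1 and Ifi27l2a alike, was not tested. Oas1a averaged 6.98 ± 1.81 in Ts1Rhr and 8.70 ± 2.24 in HMGN1_OE, against 9.02 ± 2.77 in WT (SD, n = 3 each), with overlap between all groups. Oas1a has near-identical neighbouring copies, and reads may have been split between them. In HMGN1_OE these 4 genes ran from -0.15 for Oasl2 to 0.38 for Oas2, while Oas1b had 0.97 and Oas1c 0.75, and none passed.

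Ifit2, which binds viral RNA and blocks its translation, stood at 4.17, 3.24 and 2.90 normalised FPKM in Ts1Rhr and 1.62, 4.45 and 3.25 in HMGN1_OE, against 2.01, 2.62 and 2.00 in WT. Ts1Rhr lay above WT without overlap, and HMGN1_OE spanned both. In Ts1Rhr the log2 fold change was 0.63 with a 95% interval from -0.19 to 1.46 (limma, adjusted p = 0.375). Usp18 removes ISG15 from proteins and damps the interferon receptor. It averaged 3.17 ± 0.499 in Ts1Rhr and 3.53 ± 1.36 in HMGN1_OE, against 2.07 ± 1.12 in WT, where replicate 1 at 3.28 overlapped both. Its log2 fold changes of 0.75 and 0.84 did not pass (limma, adjusted p = 0.337 in Ts1Rhr and 0.454 in HMGN1_OE). Isg15 itself stood at 1.20, 0.994 and 2.32 in Ts1Rhr and 3.70, 3.64 and 1.22 in HMGN1_OE, against 2.31, 1.08 and 1.54 in WT. The values of the 3 groups overlapped, with intervals from -1.27 to 0.96 in Ts1Rhr and from -0.42 to 1.81 in HMGN1_OE. Trim25, the most abundant gene of the set, had log2 fold changes of -0.10 (-0.65 to 0.45) in Ts1Rhr and 0.10 (-0.45 to 0.65) in HMGN1_OE.

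Of the 4 guanylate-binding and immunity-related GTPase genes of the set, Gbp3 was higher than WT in every library of both mutant groups, and did not pass. Guanylate-binding proteins attack membranes around intracellular pathogens. Gbp3 stood at 21.6, 17.1 and 23.9 normalised FPKM in Ts1Rhr and 33.1, 17.5 and 21.0 in HMGN1_OE, against 14.1, 13.8 and 10.6 in WT. All 6 mutant values lay above all 3 WT values. Taken 1 group at a time, 21.7% of all tested genes did so in Ts1Rhr and 16.6% in HMGN1_OE. Gbp3 had a log2 fold change of 0.70 with a standard error of 0.26 in Ts1Rhr (limma, adjusted p = 0.174) and 0.85 with 0.26 in HMGN1_OE (limma, adjusted p = 0.288). The WT libraries are the same in both comparisons. Gbp5 and Gbp7, from the wider list, also had all 6 mutant normalised values above WT. Their log2 fold changes of 0.84 and 0.95 in Ts1Rhr and 0.69 and 0.79 in HMGN1_OE did not pass (limma). For Gbp5 the margin of HMGN1_OE replicate 2 over WT replicate 2 was narrow, at 6.46 against 6.44. On raw FPKM that library was below it, at 4.96 against 6.94, while Gbp7 kept all 6 mutant values above WT. Gbp4, Gbp8, Gbp9 and Gbp11, tested there too, overlapped WT in at least 1 mutant group. On raw FPKM, HMGN1_OE replicate 2 of Gbp3 at 13.0 was within the WT range of 12.9 to 14.1, so that only Ts1Rhr stayed apart. Without HMGN1_OE replicate 1, the highest library, the HMGN1_OE log2 fold change of Gbp3 was 0.59. Gbp2 averaged 16.9 ± 3.24 in Ts1Rhr and 18.4 ± 3.12 in HMGN1_OE, against 13.6 ± 2.23 in WT, with overlap. Guanylate-binding proteins are close paralogs, so their reads are not fully separable.

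Irgm1 and Igtp encode immunity-related GTPases of the kind that controls intracellular pathogens. Irgm1 stood at 31.3, 28.2 and 24.4 normalised FPKM in Ts1Rhr and 32.2, 48.8 and 33.8 in HMGN1_OE, against 42.4, 28.1 and 24.2 in WT. Ts1Rhr lay below HMGN1_OE without overlap, and WT covered the range of Ts1Rhr. The log2 fold change of Ts1Rhr over HMGN1_OE was -0.43 with a 95% interval from -0.99 to 0.12 (limma, adjusted p = 0.988). Igtp averaged 4.18 ± 0.981 in Ts1Rhr and 4.03 ± 0.767 in HMGN1_OE, against 2.92 ± 0.517 in WT (SD, n = 3 each), with log2 fold changes of 0.51 and 0.46 that did not pass (limma, adjusted p = 0.378 and 0.572).

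A group of ADP-ribosylating enzymes lies together on chromosome 16 outside the triplicated segment. Parp9 and Dtx3l encode the partners of a complex that marks proteins and histones with ubiquitin and ADP-ribose, and Parp14 a transferase that shapes cytokine signals. By RefSeq gene order they lie 296 to 298 gene rows before Cbr1. Dtx3l stood at 16.4, 14.5 and 12.7 normalised FPKM in Ts1Rhr and 10.1, 16.9 and 16.6 in HMGN1_OE, against 9.82, 12.7 and 9.30 in WT. The lowest Ts1Rhr value and the highest WT value were nearly equal. The log2 fold change was 0.46 with a 95% interval from -0.08 to 1.00 in Ts1Rhr (limma, adjusted p = 0.321) and 0.43, from -0.11 to 0.97, in HMGN1_OE (limma, adjusted p = 0.515). Parp9 gave 0.38 and 0.25, and Parp14 0.16 and 0.18. The annotated starts of Parp9 and Dtx3l overlap on opposite strands, and no source used here says whether counting used strand, so reads from the shared stretch cannot be told apart. Parp12, on chromosome 6, averaged 6.54 ± 1.64 in Ts1Rhr and 7.78 ± 3.13 in HMGN1_OE, against 8.87 ± 3.11 in WT. Its log2 fold change in Ts1Rhr was -0.41 (limma, adjusted p = 0.479).

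The remaining effectors included the largest positive fold in Ts1Rhr among the 32 tested genes. Xaf1, a partner of the apoptosis inhibitor XIAP, stood at 2.48, 3.29 and 2.30 normalised FPKM in Ts1Rhr and 1.28, 2.59 and 2.16 in HMGN1_OE, against 0.645, 1.20 and 2.20 in WT. Ts1Rhr was above WT in all libraries, by little over WT replicate 3, whose raw value was inside the Ts1Rhr range. Its fold was 2.22, a log2 fold change of 1.15 with a 95% interval from 0.12 to 2.19 (limma, adjusted p = 0.213), and 0.69 in HMGN1_OE (limma, adjusted p = 0.585). Ifi27l2a, a small mitochondrial and membrane protein gene, stood at 15.9, 9.78 and 2.96 in Ts1Rhr and 13.5, 16.8 and 15.8 in HMGN1_OE, against 18.9, 15.5 and 11.9 in WT. The Ts1Rhr values spread most, and the lowest was again replicate 3. The log2 fold change of Ifi27l2a was -0.97 (limma, adjusted p = 0.218), and -0.28 without that library. Rtp4, which restrains viral replication, averaged 1.46 ± 0.747 in Ts1Rhr and 1.59 ± 0.735 in HMGN1_OE, against 1.87 ± 0.220 in WT. Rsad2 averaged 1.70 ± 0.438 in Ts1Rhr and 1.57 ± 0.756 in HMGN1_OE, against 2.04 ± 0.832 in WT. Their log2 fold changes were -0.53 and -0.20 in Ts1Rhr and -0.34 and -0.39 in HMGN1_OE. Cmpk2, a mitochondrial nucleotide kinase gene, had 0.45 in Ts1Rhr and 0.08 in HMGN1_OE, and Ifi35, an interferon-induced leucine zipper protein gene, 0.11 and 0.15. None of these 4 passed (limma, adjusted p from 0.446 to 0.852 in Ts1Rhr and from 0.757 to 0.933 in HMGN1_OE).

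The 7 genes with a mean raw FPKM under 1 were compared 1 by 1 on raw FPKM by a two-sided exact permutation test, whose smallest p with 3 libraries against 3 is 0.1. Irf7, the transcription factor that amplifies the response, stood at 0.392, 0.193 and 0.384 raw FPKM in Ts1Rhr and 1.13, 0.801 and 0.449 in HMGN1_OE, against 1.26, 0.922 and 1.02 in WT. Every Ts1Rhr value was below every value of the other groups (exact permutation p = 0.1 against either group). Ifi44, an interferon-induced protein gene, stood at 0.843, 1.15 and 0.837 in Ts1Rhr and 0, 0.370 and 0.604 in HMGN1_OE, against 0.223, 0.0389 and 0.252 in WT. Here every Ts1Rhr value was above every other value (exact permutation p = 0.1 against either group). Of the tested genes, which have higher levels, 18.5% lay below WT and 19.1% above it in Ts1Rhr without overlap on raw FPKM. Against HMGN1_OE these shares were 5.99% and 6.89%. Ifit1, a sister of Ifit2, was 0.652, 0.597 and 0.877 in Ts1Rhr and 0.476, 0.171 and 0.460 in HMGN1_OE, against 1.43, 0.389 and 0.560 in WT. Only its comparison of Ts1Rhr with HMGN1_OE reached an exact permutation p of 0.1. Over the 21 tests of these 7 genes the smallest adjusted p was 0.42. The rest lay between 0 and 0.664 raw FPKM and overlapped in all comparisons. In the raw table Ifit3, Mx1 and Mx2 were listed at 0 in 2 libraries each and Oasl1 in 3.

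Mx1 and Mx2 encode dynamin-like GTPases that trap viral nucleocapsids, and they sit at the far end of the triplicated segment. By RefSeq gene order Mx1 comes 1 gene row before Fam3b, so between Cbr1 and Fam3b, and Mx2 comes 1 gene row after Fam3b. Mx1 stood at 0.637, 0.426 and 0 raw FPKM in Ts1Rhr and 0, 0.485 and 0.0541 in HMGN1_OE, against 0.380, 0.126 and 0.417 in WT (exact permutation p = 0.8 for Ts1Rhr against WT). Mx2 stood at 0.129, 0.271 and 0.270 in Ts1Rhr and 0.592, 0.132 and 0 in HMGN1_OE, against 0.102, 0 and 0.179 in WT (exact permutation p = 0.2). At such levels a change of the size of 1 added gene copy was not detectable. Among the receptor genes Ifnar1, Ifnar2 and Ifngr2 lie on chromosome 16 as well, 24 to 28 gene rows before Cbr1 and so outside the segment. Their log2 fold changes in Ts1Rhr were -0.06, -0.20 and -0.20.

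In HMGN1_OE against WT none of the 32 tested genes passed on either table (limma, adjusted p under 0.05), where 0.0919% of all tested genes did on normalised FPKM (0.00919% higher, 0.0827% lower) and 0.0368% on raw FPKM. At an unadjusted p under 0.05 there was 1, Gbp3 on normalised FPKM and Bst2 on raw FPKM, beside 11.7% and 14.6% of all tested genes. Of the 32, 23 (71.9%) had a log2 fold change above 0, beside 72.7% of all tested genes. Their median was 0.19, beside 0.21 over all tested genes. The groups did not overlap for Gbp3, Irf9 and Stat2, all higher, beside 16.6% of all tested genes, and for 0 lower ones, beside 0.8%. On raw FPKM the 2 genes without overlap were lower ones, Eif2ak2 and Rtp4, beside 8.25%, and 0 were higher, beside 9.81%. The largest folds after Gbp3 were those of Usp18, Isg15, Xaf1, Igtp and Gbp2, and the lowest those of Bst2, Rsad2, Rtp4, Parp12, Ifih1 and Oasl2, from -0.45 to -0.15. HMGN1_OE replicate 2 held the highest normalised value of the 9 libraries for 17 of the 32 genes. It also had the highest library median over all genes, 4.09 on the log2 scale, where the other libraries lay between 3.39 and 3.91. On raw FPKM it was highest for 3 genes. WT replicate 3 had the lowest library median, 3.39, and the lowest normalised value for 10 of the 32 genes, against 1 on raw FPKM. That library enters both comparisons with WT.

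Between Ts1Rhr and HMGN1_OE 0 of the 32 genes passed, as did 0% of all tested genes (limma). Zbp1, Oas2 and Ifi27l2a had an unadjusted p under 0.05, or 9.38% of the 32, beside 4.37% of all tested genes. The log2 fold change of Oas2 was -1.18 with a 95% interval from -2.34 to -0.02, and Ts1Rhr lay below HMGN1_OE without overlap. Oas2 and Irgm1 were lower in this way, beside 6.6% of all tested genes, and Dhx58 was higher, beside 1.79%. That of Ifi27l2a was -0.99 (-1.88 to -0.10), and -0.30 without Ts1Rhr replicate 3. Isg15, Oas3 and Bst2 had -0.86, -0.68 and -0.62, and Eif2ak2, Dhx58, Xaf1, Cmpk2, Ifih1 and Ifit2 had 0.55 to 0.25. On raw FPKM Xaf1 was higher without overlap, beside 6.89%, and Irgm1 and Stat2 were lower, beside 5.99%, with 4 genes at an unadjusted p under 0.05 (12.5%), beside 8.85%. Of the 32, 10 (31.3%) had a log2 fold change above 0 on normalised FPKM, beside 37.5% of all tested genes, and the median was -0.19, beside -0.09.

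Library by library, the median deviation of the set from the 9-library mean, less that of all genes, was -0.07, -0.02 and -0.00 on log2 raw FPKM in Ts1Rhr and 0.08, 0.08 and -0.07 in HMGN1_OE, against 0.20, -0.02 and 0.05 in WT. WT replicate 1 was the highest, and it also had the highest macrophage sum. Within Ts1Rhr the order was the reverse, as replicate 1 had the highest macrophage sum of its group and the lowest deviation. A link between the macrophage sum and the set was not tested. The groups overlapped.

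Wider lists of the pathway gave few calls. Of 21 genes that sense nucleic acids or relay the signal to interferon genes, all were tested and 0 passed on either table in any comparison (limma). On normalised FPKM 1 (4.76%) had an unadjusted p under 0.05 in Ts1Rhr against WT, beside 19.5% of all tested genes. The highest mean raw FPKM there were those of Unc93b1, which carries toll-like receptors to endosomes, at 208, Irf4 at 87.7, and the kinase gene Tbk1 at 66.9. In Ts1Rhr 6 of the 21 (28.6%) had a log2 fold change above 0, beside 59.9% of all tested genes. Of 100 other interferon-induced genes 79 were tested and 0 passed on normalised FPKM in any comparison (limma), with 22 (27.8%) at an unadjusted p under 0.05 in Ts1Rhr and 13 (16.5%) in HMGN1_OE against WT, beside 19.5% and 11.7% of all tested genes. B2m, the light chain of MHC class I, Ly6e and Plac8 had the highest levels, with 1410, 812 and 567 raw FPKM. On raw FPKM 4 of the 79 (5.06%) rose and 7 (8.86%) fell in Ts1Rhr, beside 4.29% and 4.56% of all tested genes. Gbp7, Ifi203, Lgals9 and Apobec3 rose, with log2 fold changes of 0.90, 0.64, 0.77 and 0.72. Ifitm1, a membrane protein gene that blocks viral entry, fell by 1.66 on the log2 scale (limma, adjusted p = 0.0309), and Ifi202b, Lgals3bp, Slfn2, Apobec1, Mlkl and Shisa5 fell too. These 11 genes are named because they passed on raw FPKM. The median log2 fold change of the 79 in Ts1Rhr was 0.12 on normalised FPKM, equal to that of all tested genes.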

How the data were processed

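RNA of 9 cultures was sequenced by the submitters after poly(A) selection. Equal cell numbers were used and 1 µl of a spike-in mix, diluted 1 in 1000, was added for scaling per cell, per the labels' protocols. Per the submitters' processing notes the tools were HISAT and Cufflinks 2.0.0 and the build mm9. The authors deposited 2 tables of FPKM, raw and normalised. No source used here states how the second was made, and its values hold about 0.1 for rows at 0. Count models do not apply to FPKM, and sequencing depth is unknown.

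Of 23398 rows, 92 spike-ins and 27 rows with dates for symbols were left out. The 10878 rows whose mean raw FPKM reached 1 were tested on log2 normalised FPKM by limma 3.58.1 (R 4.3.3; trended prior variance). All 9 libraries entered 1 fit with a mean per group. P-values are two-sided, Benjamini-Hochberg adjusted over all tested rows, with a threshold of 0.05. Raw FPKM entered as log2(FPKM + 0.1). Normalised values have a floor of about 0.1 too, so on both scales folds of low genes are understated. The fit was tested on simulated data.

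Genes and lists were chosen with earlier results of these data known. Named are all 39 genes: those called, the 6 largest log2 fold changes each way per comparison, all library values where groups do not overlap, and levels of those below the filter. Of other lists, receptor genes, called genes and the 3 highest are named. Library values of Eif2ak2, Isg15, Oas3, Zbp1 and Ifi27l2a, and the names Oas1b, Oas1c, Gbp4, Gbp5, Gbp8, Gbp9 and Gbp11, were added after being seen. Some items are not reported here. RefSeq GRCm38.p6 gave promoters and gene order only. Alternatives were raw FPKM, pseudocount 1, other filters (none or 5), equal medians, 1 spike-in factor, a replicate block, 2-group fits and leaving out libraries.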

Additional observations from a re-analysis of the deposited data

How the results depend on the processing

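The count of interferon response genes called in Ts1Rhr against WT was 0, and it was 1 (Bst2, lower) on raw FPKM, with libraries at the same median and with only the 2 groups compared. Leaving out 1 library gave 0 to 1, the 1 being Bst2 without HMGN1_OE replicate 2. It was 0 in the other comparisons under every alternative. The genes called over the whole table moved far more. In Ts1Rhr against WT there were 62 (46 higher, 16 lower), and 963 on raw FPKM (467 and 496), 8 without a filter (1 and 7), 693 at the same median (251 and 442), 119 with the replicate block (72 and 47), 267 with 2 groups (204 and 63), and 4 to 203 leaving out 1 library. In HMGN1_OE against WT there were 10, and 4 on raw FPKM, 19 with pseudocount 1, 4 without a filter, 18 with 2 groups, and 1 to 17 leaving out 1 library. In Ts1Rhr against HMGN1_OE there were 0, and 1 with pseudocount 1, 2 with 1 spike-in factor, 5 with the replicate block, and 0 to 3 leaving out 1 library. Equal replicate numbers did not pair the libraries, as correlations of same-numbered deviations ran from -0.132 to 0.156 on normalised FPKM, so the block is only an alternative. It called 0 of the 32 genes, and on raw FPKM Bst2 no longer passed with it (limma, adjusted p = 0.0572). The raw fits of Bst2 with a block or a library left out were chosen after seeing the data. Over 96 single-gene results and 1596 alternative values, the side of the threshold changed in 4, all of Bst2, and the sign in 100, spread over 40 results, 15 of them on raw FPKM. None of the values that changed sign was called. Genes near 1 FPKM are limited by low signal, and 3 libraries a group leave wide intervals.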
